A study of Mus musculus with 16 samples.

Results

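The 10 classic maternal imprint control regions (ICRs) of the mouse, those of Peg10, Mest, Peg3, Snrpn, Kcnq1ot1, Plagl1, Grb10, Zrsr1, Igf2r and Impact, were followed across 16 bisulfite libraries of pooled metaphase II oocytes. They were chosen by fixed GRCm38 intervals that use no value measured here, and form 10 regions set against 218689 tiles of 100 CpGs in the whole series. Earlier results of these data were known when these regions were chosen. For every interval and library, all methylated and unmethylated calls were pooled into 1 percentage. The oocytes were taken from females of the first cross between the strains C57BL/6J and CBA/Ca. In the IFC group (4 pools) oocytes grew in preantral follicles cultured in vitro from prepubertal ovaries, and the labels give an age of 23 days, culture included. SO pools (5) came from females of 23 days superovulated with gonadotropins before puberty, SOA pools (4) from females of 10 weeks superovulated with a higher dose, and IV pools (3) from females of 10 weeks that ovulated without hormones. Age and hormone dose therefore changed together between SO and SOA, and age and hormone treatment between SO and IV. IFC differed from every other group in its culture and its in vitro ovulation stimulus, and from SOA and IV also in age. Within such a comparison these factors cannot be told apart. Cumulus cells had been removed and the polar body kept, and each library holds many oocytes, so a level below 100% does not tell partly methylated DNA in all oocytes from unmethylated DNA in some of them.

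At an ICR the 2 parental copies carry different DNA methylation, set in the germ line, and this difference decides which parental copy of the neighbouring genes is expressed. At maternal ICRs the mark is placed in the growing oocyte by DNMT3A with its cofactor DNMT3L, mostly where transcription runs through the region, and sperm carry none. After fertilisation ZFP57 binds a methylated hexamer within ICRs and, with TRIM28, keeps the mark through the genome-wide loss of methylation in the early embryo. A fully grown oocyte is therefore known to hold nearly complete methylation at these regions.

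Most of the intervals lie at promoters. On chromosome 6, the Peg10 interval (chr6:4746012-4749561) holds the divergent start sites of Peg10, a retrotransposon-derived gene of the placenta, and Sgce, which encodes a sarcoglycan. The Mest interval (chr6:30735000-30739700) lies within Mest, which encodes a hydrolase-like protein, and holds 3 of its start sites. On chromosome 7, the Peg3 interval (chr7:6727343-6731352) spans the start sites of Peg3, a zinc-finger gene, and of Usp29, a ubiquitin-protease gene that runs the other way. Also on this chromosome are the Snrpn interval (chr7:60003140-60005415), at a start site of this splicing factor gene and of Snurf, and the Kcnq1ot1 interval (chr7:143294803-143296757), which lies in an intron of the potassium channel gene Kcnq1 and holds the start of the antisense RNA Kcnq1ot1. The Plagl1 interval (chr10:13090449-13092043) holds 8 start sites of this zinc-finger gene. The Grb10 interval (chr11:12025482-12026332), in a gene for a growth factor receptor adaptor, was the shortest, with 851 bp, and 57.2% of it is annotated as untranslated exon. The Zrsr1 interval (chr11:22971926-22973792) covers the start of this intronless gene inside an intron-bearing host, Commd1. The Igf2r interval (chr17:12741297-12742860) is intronic in Igf2r, which encodes the receptor that clears IGF2, and holds the start of the antisense RNA Airn. The Impact interval holds 2 start sites within Impact, a regulator of translation. The intervals carry between 64 CpGs (Snrpn) and 194 (Peg10), and CpG density ran from 28.1 CpGs per kb at Snrpn to 103.4 at Grb10.

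The sequences below are 240 bp stretches of the GRCm38 plus strand, with no annotated exon, from the ICRs that the results turn on. Capitals mark the ZFP57 hexamer TGCCGC or, on the other strand, GCGGCA. Mest (chr6:30737574-30737813), Peg3 (chr7:6729936-6730175) and Grb10 (chr11:12025521-12025760) are shown because a difference between groups passed the test there, and Grb10 has no hexamer in its stretch. Snrpn (chr7:60004662-60004901) and Igf2r (chr17:12742182-12742421) are shown as regions rich in the hexamer whose levels did not differ between groups by the test.
Mest: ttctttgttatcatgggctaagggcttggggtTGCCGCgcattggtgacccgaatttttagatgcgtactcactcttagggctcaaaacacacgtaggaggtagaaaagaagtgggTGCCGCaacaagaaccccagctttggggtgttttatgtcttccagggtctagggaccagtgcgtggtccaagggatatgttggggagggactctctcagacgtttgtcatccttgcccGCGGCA
Peg3: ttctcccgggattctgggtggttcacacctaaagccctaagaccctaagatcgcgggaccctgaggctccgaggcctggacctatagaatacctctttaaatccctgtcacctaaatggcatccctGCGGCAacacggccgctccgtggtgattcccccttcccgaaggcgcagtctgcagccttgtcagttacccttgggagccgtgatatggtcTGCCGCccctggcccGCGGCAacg
Grb10: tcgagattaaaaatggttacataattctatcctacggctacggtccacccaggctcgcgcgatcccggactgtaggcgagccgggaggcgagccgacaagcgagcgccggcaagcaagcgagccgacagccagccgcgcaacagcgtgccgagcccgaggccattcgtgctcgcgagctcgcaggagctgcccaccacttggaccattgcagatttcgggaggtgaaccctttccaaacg
Snrpn: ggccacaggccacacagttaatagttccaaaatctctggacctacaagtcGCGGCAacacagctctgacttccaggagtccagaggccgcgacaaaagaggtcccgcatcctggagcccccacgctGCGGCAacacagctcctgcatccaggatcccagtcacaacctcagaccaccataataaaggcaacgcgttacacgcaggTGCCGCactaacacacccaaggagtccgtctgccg
Igf2r: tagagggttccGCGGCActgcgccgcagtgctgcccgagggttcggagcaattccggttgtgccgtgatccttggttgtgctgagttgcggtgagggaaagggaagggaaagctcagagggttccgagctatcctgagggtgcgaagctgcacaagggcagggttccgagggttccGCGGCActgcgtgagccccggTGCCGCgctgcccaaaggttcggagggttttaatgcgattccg

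Depth sets the precision of every value. Libraries held between 5218053 and 23065411 calls, and all 4 IFC libraries, 2 of SO and 3 of SOA were below 10000000 calls, while the 3 IV libraries were all above, so depth and group were partly confounded. The 10 ICRs together received between 190 calls in SOA3 and 1114 in SOA4. SOA3 had no call at Plagl1 or Grb10 and 2 at Peg10, and these values were left out. PBAT reads carry no molecular identifiers, and the calls of 1 read are not independent, so intervals given here cover counting error only.

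The ICRs were highly methylated in all 4 groups. Pooled over the 10 regions, SOA pools had the highest mean, 95.2% ± 1.61 (SD, n = 4), and IFC pools had 93.2% ± 2.20 (SD, n = 4). The mean of the 5 SO pools was 92.7% ± 2.83 (SD), and that of the 3 IV pools was 91.3% ± 4.45 (SD). The lowest library was IV1, with 86.3% (95% Wilson interval 83.8 to 88.5), followed by SO4 with 89.4% (87.2 to 91.3) and IFC4 with 89.9% (86.1 to 92.8). The other 13 libraries lay between 90.5% and 97.4%. These values include the first of 5 equal parts of Peg10, which was nearly unmethylated and unevenly covered, as described below. Without it, pools lay at 92.9% to 95.15% in IFC and 91.4% to 96.4% in SO. SOA pools then lay at 95.8% to 97.4% and IV pools at 87.6% to 96.2%, and IV1, SO4 and IFC4 stayed the lowest. Over all libraries the mean per ICR went from 82.0% at Peg10, 92.9% at Grb10 and 93.3% at Mest to 95.9% at Igf2r and 96.2% at Kcnq1ot1, and apart from Peg10 the neighbours in this order lay closer together than the SD between their libraries. For comparison, tiles above 80% over all libraries, 48227 in number, had a median of 93.5%, while the median of the 195710 tiles with a value in each library was 29.95%.

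**Figure D1:**
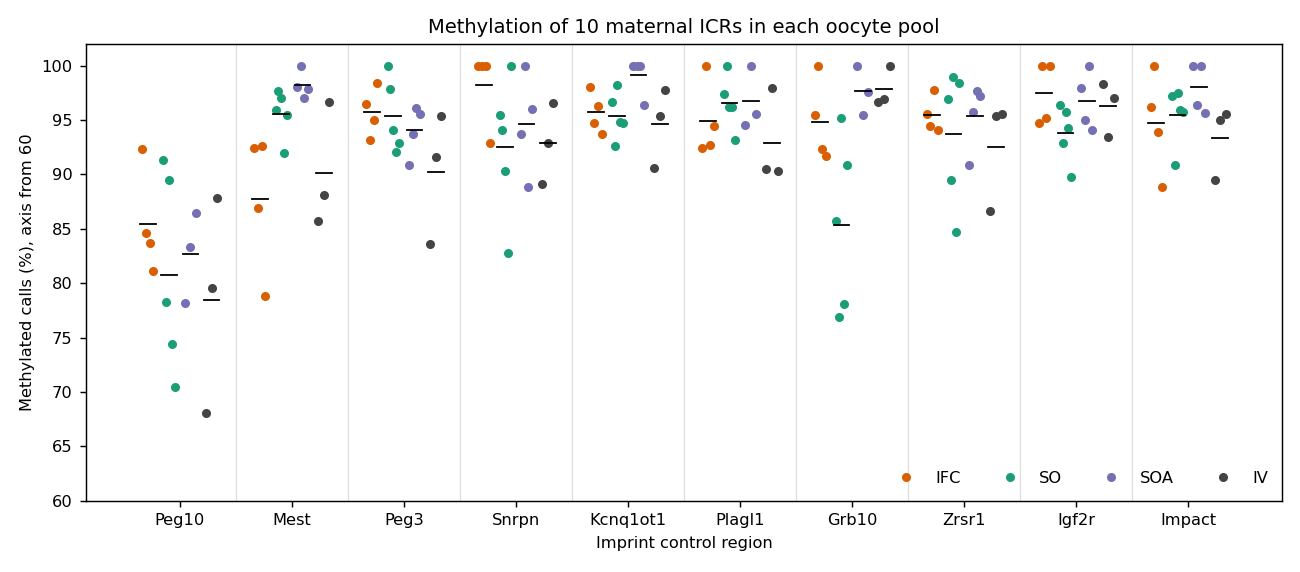
Percentage of methylated calls (y axis, from 60%) of each of the 10 ICRs (x axis) in each oocyte pool, coloured by group; points are pools with at least 5 covered positions and bars the group means. Most pools sit above 90%, Peg10 is the lowest region, and groups lie apart without overlap at Mest (IFC and IV below SOA), at Grb10 (SO below IV and below SOA) and at Impact (IV below SOA).

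Among the ICRs at promoters of paternally expressed protein-coding genes, Mest passed the test in 2 comparisons. Its level was 92.5%, 87.0%, 92.7% and 78.8% in the 4 IFC pools, 95.9%, 97.7%, 97.0%, 91.9% and 95.5% in the 5 SO pools, 98.1%, 100%, 97.1% and 97.9% in the 4 SOA pools and 85.7%, 88.1% and 96.6% in the 3 IV pools. Both IFC and IV therefore lay below all SOA pools with no overlap, and IFC overlapped SO only through IFC1, IFC3 and SO4. Groups failed to overlap in 7.38% of tiles in IFC against SOA and in 6.54% in SOA against IV. IFC minus SOA was -10.54 points, with 87.7% ± 6.52 (SD, n = 4) against 98.3% ± 1.24 (SD, n = 4), and the 2-sided exact permutation test gave p = 0.0286, the smallest that 4 pools against 4 allow. The logistic likelihood-ratio test of the pooled calls, adjusted by Benjamini-Hochberg over all tiles and ICRs, gave 0.000714 for that difference and 0.00795 for SOA against IV, where SOA was 8.10 points higher (exact permutation p = 0.0286, again the smallest possible). In both cases the quasi-binomial test, which counts the spread between pools, did not pass after adjustment over the same regions (0.218 and 0.812), and limma on the pool percentages made no call there either. IFC minus SO was -7.88 points (exact permutation p = 0.0317, likelihood-ratio adjusted p = 0.108), which did not pass. It was called, however, without SO4 (-8.80 points), with the interval shortened by 10% at each end (-8.15 points) and with the replicate number as a block. SO minus SOA was -2.66 points (exact permutation p = 0.0397, likelihood-ratio adjusted p = 0.18), which did not pass either. The exact permutation p-values here and below were not adjusted over the ICRs or the comparisons. Within Mest, IFC had lower pooled levels than SOA in each of the first 4 of 5 equal parts of the interval, between 81.8% and 88.9% against 98.7% to 100%, and a higher one in the last part, 100% of 58 calls against 87.5% of 32. SOA against IV at Mest was no longer called without IV1 (5.88 points) or with the interval extended by 500 bp (3.82 points). It was also not called without SOA4 or after thinning, where the difference stayed at 8.22 and 7.37 points and fewer calls were left to test. IFC against SOA at Mest was called with any 1 pool left out and was not called with the extended interval, where the difference was -7.83 points.

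Peg3 lay at 96.5%, 93.2%, 95% and 98.4% in IFC, 100%, 97.9%, 94.0%, 92.1% and 92.9% in SO, 90.9%, 93.8%, 96.2% and 95.6% in SOA, and 83.6%, 91.6% and 95.4% in IV. IV1 was the lowest of the 16 libraries, and the other pools overlapped across all groups. IFC was 5.53 points higher than IV, which passed the likelihood-ratio test (Benjamini-Hochberg adjusted p = 0.0229) but not the exact permutation test over pools (p = 0.143). Without IV1 the difference was 2.24 points and was not called. Most unmethylated IV calls lay in the last of the 5 equal parts, where IV1 had 9 methylated of 25 calls, IV2 36 of 45 and IV3 33 of 37. In the other 12 libraries with calls there, the same part was at 100% in 10 and at 89.5% and 92.9% in SO4 and SO3.

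The remaining promoter ICRs passed the test in no comparison. At Snrpn the 4 IFC pools averaged 98.2% ± 3.57 (SD) and the 5 SO pools 92.5% ± 6.47 (SD). This difference of 5.68 points lay within the spread of SO, whose pools ran from 82.8% to 100%. The IFC pools had only 6, 19, 31 and 14 calls there. Plagl1 ranged from 90.3% to 100% over its 15 libraries and Impact (chr18:12972055-12974449) from 88.9% to 100% over 16. At Impact the SOA pools (95.7% to 100%) all lay above the IV pools (89.5% to 95.6%), a difference of 4.69 points (exact permutation p = 0.0571, likelihood-ratio adjusted p = 0.422). Zrsr1 ranged from 84.7% in SO4 to 98.9% in SO3, both in the same group, and its group means lay between 92.5% and 95.5%.

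The 2 ICRs at promoters of long antisense RNAs had the smallest SD over all libraries, 2.71 points at Kcnq1ot1 and 2.87 at Igf2r. Kcnq1ot1 was at 98.0%, 94.7%, 96.3% and 93.8% in IFC, 96.7%, 92.6%, 98.2%, 94.8% and 94.7% in SO, 100%, 100%, 100% and 96.4% in SOA, and 90.6%, 95.4% and 97.8% in IV. SO minus SOA was -3.71 points there (exact permutation p = 0.0397, likelihood-ratio adjusted p = 0.603), but the 3 SOA pools at 100% had only 13, 33 and 24 calls, and between all pooled calls the difference was -1.69 points. Igf2r, the ICR of Airn, lay between 89.7% in SO5 and 100% in IFC2, IFC4 and SOA3, with group means from 93.8% to 97.5%. No difference between groups passed the likelihood-ratio test at either region.

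Grb10, where the maternal mark governs tissue-specific promoters of both parental copies, had its lowest level in superovulated prepubertal oocytes. It lay at 95.5%, 100%, 92.3% and 91.7% in IFC, 85.7%, 76.9%, 95.2%, 78.0% and 90.9% in SO, 100%, 95.5% and 97.6% in SOA1, SOA2 and SOA4, and 96.7%, 96.9% and 100% in IV. All SO pools lay below all IV pools and below the 3 SOA pools, while IFC and SO overlapped. IFC was 9.49 points higher than SO (exact permutation p = 0.0714, likelihood-ratio adjusted p = 0.25), which did not pass. Groups failed to overlap in 5.82% of tiles in SO against IV and in 3.77% in SO against SOA. The latter share is of tiles with all 4 SOA pools, whereas Grb10 had 3, and fewer pools lie apart more easily. SO minus IV was -12.5 points, with 85.4% ± 7.96 (SD, n = 5) against 97.9% ± 1.86 (SD, n = 3). This passed the likelihood-ratio test (Benjamini-Hochberg adjusted p = 0.0154), the exact permutation test gave p = 0.0536 where 0.0179 is the smallest possible, and the quasi-binomial test gave 0.0408 before and 0.531 after adjustment. Against SOA the difference was -12.3 points (exact permutation p = 0.0536). Because SOA3 had no call, this region was not informative in that comparison, and when only that pool was left out it was called. The calls of the SO pools were few, between 13 in SO2 and 63 in SO3. SO against IV at Grb10 was not called with all libraries thinned to the shallowest (-16.0 points), with the libraries above 10000000 calls alone (-9.80 points), without SO4 (-10.67 points), without IV2 (-13.0 points) or without the 3 libraries IV1, SO4 and IFC4 (-11.3 points), although SO was lower in each. With at least 20 covered positions asked of every pool it could not be tested.

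No ICR was called with a difference of at least 20 points in any of the 6 comparisons. The number called by adjusted p alone was 0 of 10 in IFC against SO, where 4.46% of tiles and ICRs were called, 0 of 7 in SO against SOA (9%), 1 of 7 in SOA against IV (6.46%), 1 of 7 in IFC against SOA (11.4%), 1 of 10 in IFC against IV (12.1%) and 1 of 10 in SO against IV (11.7%). With the limit of 20 points, 1.21%, 1.95%, 0.438%, 3.98%, 3.65% and 1.68% of tiles and ICRs were called in the same order. Before adjustment, 4, 1, 2, 1, 3 and 3 ICRs, out of those same 10 or 7, had a likelihood-ratio p under 0.05. The quasi-binomial test and limma called no ICR in any comparison. Before adjustment the quasi-binomial test gave 0, 1, 0, 1, 0 and 1 ICRs with a p under 0.05. Limma gave 2, 0, 1, 1, 0 and 1 ICRs before adjustment. The exact permutation test, not adjusted, gave a p under 0.05 at 1, 2, 1, 1, 0 and 0 of all 10 ICRs. The shares of tiles with an unadjusted p under 0.05 were not counted, so whether these counts exceed them is not known. Among tiles above 80% methylation, the shares called by adjusted p were lower, with 2.27%, 3.41%, 2.38%, 4.83%, 6.66% and 5.09% in the same order. The groups of 0, 1, 2, 1, 0 and 1 ICRs did not overlap, beside 2.76%, 3.77%, 6.54%, 7.38%, 10.5% and 5.82% of tiles. The ICR in SO against SOA was Grb10, with 3 SOA pools, while the tiles had all 4. The median absolute difference over the 10 ICRs lay between 2.36 points (SO against SOA) and 3.83 points (SOA against IV), beside 2.13 to 2.73 points for tiles above 80%. In SOA against IV, 9 of the 10 ICRs were higher in SOA, with a median difference of 3.83 points, beside a median of 1.70 points over the tiles above 80%. Without IV1, 6 of 10 were higher in SOA, with a median of 1.04 points. In SO against SOA, 9 of 10 were lower in SO (median -2.36 points, beside -0.42 over those tiles). Peg10 without its leading part, described below, was higher in SO, which leaves 8 of 10 lower with the same median. Without SO4, 7 of 10 were lower in SO, with a median of -1.003 points, or 6 of 10, with -0.887 points, when Peg10 was also taken without its leading part. Without SO5 the count was 7 of 10 with either form of Peg10, with -2.64 points. These comparisons share pools with each other, so their values do not add up as independent observations.

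**Figure D2:**
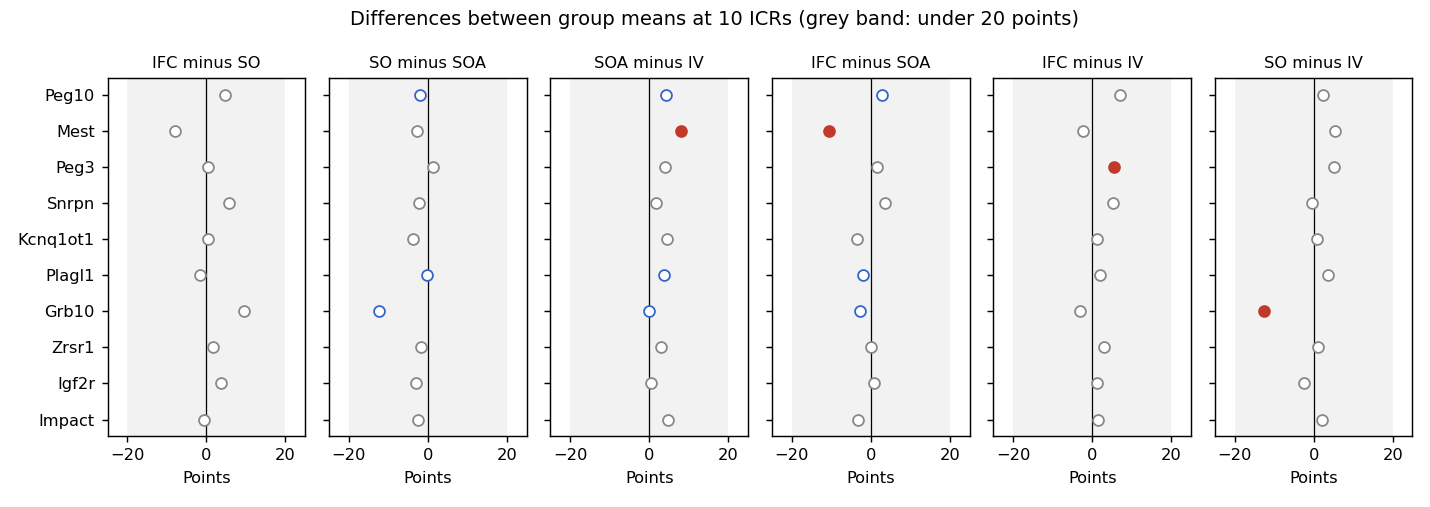
Difference between group means in percentage points (x axis) for each ICR (y axis) in the 6 comparisons. Filled circles are ICRs with an adjusted p under 0.05 in the likelihood-ratio test, blue open circles were not informative because of SOA3, and grey open circles did not pass. All 60 differences lie within the 20-point band.

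Peg10 was the lowest ICR in every group, and the values within its interval show where. Its level was 92.3%, 84.6%, 83.7% and 81.2% in IFC, 91.3%, 78.3%, 89.5%, 74.4% and 70.5% in SO, 78.2%, 83.3% and 86.4% in SOA1, SOA2 and SOA4, and 68.1%, 79.5% and 87.9% in IV. The first of 5 equal parts, called the leading part from here on (chr6:4746012-4746721, 23 CpGs) was nearly unmethylated, with 1.91% of 157 calls, and no group exceeded 5.26%. The other 4 parts had 91.8%, 95.5%, 92.5% and 98.5%. At single CpGs the change fell between position 4746687, with 1 of 2 calls methylated, and position 4746870, with 2 of 2, and the CpG between them at 4746743 had 3 of 4. Of the 11 sites that follow, 2 had 50% of their calls or fewer methylated, 4746962 with 3 of 6 and 4747005 with 1 of 4. The stretch across this edge (chr6:4746602-4746841, GRCm38, plus strand) is printed with a capital CG for each CpG at which more than 50% of the calls were methylated, here a single one.
Peg10 edge: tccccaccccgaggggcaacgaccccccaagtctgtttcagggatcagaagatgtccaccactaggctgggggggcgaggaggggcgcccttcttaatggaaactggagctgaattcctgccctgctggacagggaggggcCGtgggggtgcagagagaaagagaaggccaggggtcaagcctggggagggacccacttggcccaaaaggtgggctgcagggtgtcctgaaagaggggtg
The edge lies upstream of the first annotated start of Peg10, at 4747306, and inside Sgce, which runs on the other strand from its outermost start at 4747207. The share of Peg10 calls that fell in the leading part ran from 2.56% in IFC1 to 30.5% in SO5. SO5, with the largest share, was the lowest pool over the interval after IV1, which had a share of 10.9%, and IFC1 was the highest of the pools that could be used. Without it the level was 94.7%, 91.7%, 92.1% and 94.9% in IFC, 100%, 97.3%, 100%, 94.4% and 100% in SO, 100%, 97.6% and 93.6% in SOA1, SOA2 and SOA4, and 75.5%, 97.2% and 97.6% in IV. SO5, the lowest SO pool over the whole interval, thus had 73 methylated of 73 calls in the rest of it. IFC minus SO was then -4.98 points, against 4.65 points over the whole interval, and neither difference was called. IV1 kept a low level, with 80 methylated of 106 calls, and with that pool SO against IV was called for Peg10 without its leading part (8.23 points), while without IV1 it was not (0.912 points).

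**Figure D3:**
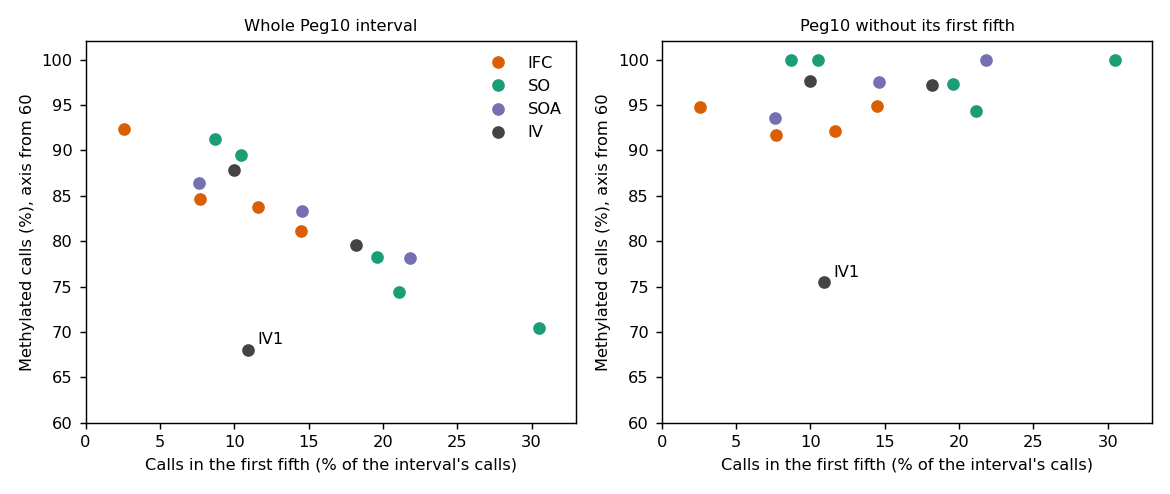
Level of Peg10 in each pool (y axis, percent methylated calls, from 60%) against the share of its calls in the leading part of the interval (x axis, percent), for the whole interval (left) and without the leading part (right). On the left IFC1, with the smallest share, lies at 92.3%, SO5, with the largest, at 70.5% and IV1 at 68.1%, and on the right the pools other than IV1 lie between 91.7% and 100%, with IV1 at 75.5%.

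Unmethylated calls at the ICRs were partly grouped into unbroken stretches. A run was counted where at least 5 successive covered positions of 1 strand, no more than 100 bp apart, had no methylated call, with the leading part of Peg10 left out. Such runs were found in 3 of the 16 libraries, 5 in IV1, 3 in SO4 and 1 in IV2, and held 58 of the 516 unmethylated calls. In IV1 they lay at Peg10, with 8 positions over 54 bp and 10 positions over 154 bp, at Mest, with 5 positions over 21 bp, at Peg3, with 6 over 80 bp, and at Snrpn, with 6 over 82 bp. In SO4 they lay at Grb10, with 6 positions over 48 bp, and in 2 places at Zrsr1, with 6 over 50 bp and 6 over 67 bp, and the run of IV2 was at Mest, with 5 over 87 bp. Calls this close together can come from the same molecule. The 6 calls of the SO4 run at Grb10 were 6 of its 9 unmethylated calls there. All 9 runs were on the bottom strand, which held 5127 of the calls on reference CpGs, with 280 unmethylated, beside 4137 on the top strand, with 198 unmethylated.

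Elsewhere the libraries with the most runs were IV1, IFC4 and SO4, of which IFC4 had no run at the ICRs. IFC4 had only 308 calls there, beside 806 in IV1 and 847 in SO4, too few to set its count against theirs. In 1010 other CpG-dense regions above 80% methylation over all libraries, there were 4.79 runs per 1000 calls in IV1, 3.45 in IFC4 and 2.37 in SO4, and between 0.466 and 1.33 in the other 13 libraries, with IV2 at 1.10. There the runs were spread over both strands, 312 on the top and 257 on the bottom. Methylation of these regions was 86.8% in IV1, 89.5% in IFC4 and 91.0% in SO4, and 93.1% to 94.9% in the rest. IV1 also stood apart at tiles below 20% in the other groups, with 15.3% against 6.46% to 10.6% in the other 15 libraries, SO4 being the next. At the window from 4 kb to 2 kb before the H19 start, which holds the paternally methylated ICR of H19 and is known to be methylated in 1 of the 2 copies of somatic cells, IV1 had 1 methylated of 53 calls (1.89%, 95% Wilson interval 0.334 to 9.94), SO4 1 of 71 and IFC4 0 of 30, where the limit of 3 counts allows up to 10% of methylated calls and the 95% Wilson interval up to 11.35%. The other 13 libraries ran from 0% to 4.55% (2 of 44 calls, in IFC3) there, so the 3 libraries lay within the range of the rest on this measure. These limits are on methylated calls and not on the share of other cells, of which 1 copy alone would be methylated there. The part of other cells or of a difference between pools in the low ICR levels of these 3 libraries was not tested. Set against the mean of the other IV pools, the difference of IV1 was negative at 9 of the 10 ICRs, from -15.6 points at Peg10 to -1.79 at Grb10, and was 3.07 points at Igf2r. With IV1, SO4 and IFC4 left out together, only IFC against SOA kept a called ICR, Mest, with a difference of -7.56 points.

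**Figure D4:**
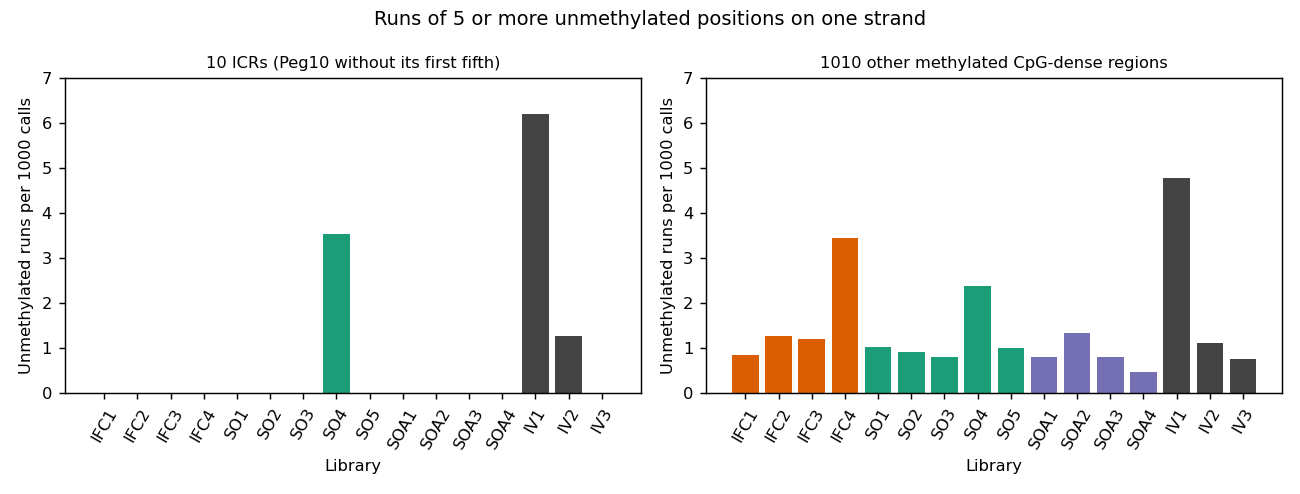
Runs of at least 5 unmethylated positions per 1000 calls (y axis) in each library (x axis), at the 10 ICRs without the leading part of Peg10 (left) and at 1010 other methylated CpG-dense regions (right), coloured by group. IV1 is the highest on both sides, and IFC4 and SO4 follow on the right, with 3.45 and 2.37.

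Beyond their borders, most ICRs lay inside methylated surroundings. In the 2 kb on either side, pooled levels were 83.1% to 100% except before Peg10, with 1.28% of 78 calls, and before Mest, with 9.86% of 426 calls. From 2 to 10 kb away, levels were 90.5% to 96.7% except at 4 flanks, with 4.11% before Peg10, 55.6% before Mest, 26.4% after Zrsr1 and 25.5% before Impact. The value before Mest mixed high and low 1 kb bins. Counted from the interval, bins 3 and 4 had 2.88% and 16.7%, and bins 5, 6 and 7 had 94.4%, 97.3% and 94.0%. Peg10 was the only ICR whose interval itself crossed such an edge. Adding 500 bp to each end of Mest takes in part of its unmethylated side, and the difference of IFC and SOA there, then -7.83 points, was no longer called.

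**Figure D5:**
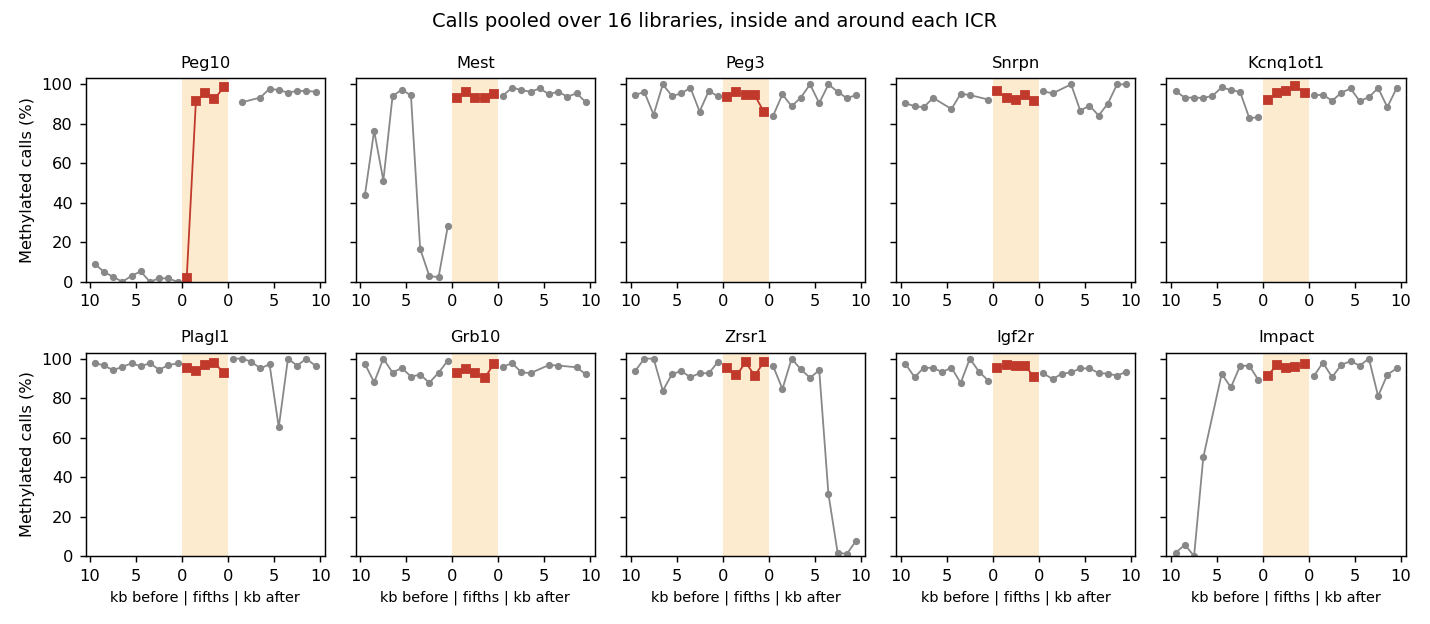
Methylated calls (y axis, percent, 16 libraries pooled) in the 5 equal parts of each ICR (red, shaded) and in 1 kb bins up to 10 kb on either side (grey); bins under 10 calls are not drawn. The methylated block that holds the ICR starts inside the Peg10 interval, at the start of the Mest interval and further away at Impact, ends beyond Zrsr1, and reaches past both ends of the others. Before Mest a separate methylated stretch lies beyond a gap of low bins.

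The spread between pools differed among the ICRs. It was measured as the dispersion of the calls within groups, which is 1 when calls are independent and pools differ only by counting. Calls of 1 read are not independent, which can raise this value without a difference between pools. Igf2r (0.685), Impact (0.677) and Kcnq1ot1 (0.754) lay below 1, Plagl1 (1.12), Grb10 (1.25) and Snrpn (1.42) near the median of tiles above 80% methylation (1.22), and Peg3 (1.904), Mest (2.003), Zrsr1 (2.31) and Peg10 (3.42) above the median of all tiles (1.60). Without IV1, Peg3 fell to 1.07 and Mest to 1.82. For Peg10 without its leading part the dispersion was 4.23 with IV1 and 1.52 without it.

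At single CpGs, with both strands joined and at least 10 calls, most sites were methylated throughout. The share with 90% or more was 96.2% of 26 sites at Snrpn, 93.6% of 47 at Igf2r, 92.9% of 28 at Zrsr1, 90% of 10 at Impact, 89.4% of 47 at Plagl1, 88.5% of 52 at Mest, 86.5% of 37 at Kcnq1ot1 and 84.8% of 79 at Peg3, and it was lower at Grb10, with 66.7% of 9 sites, and at Peg10, with 64.5% of 31. Of the Peg10 sites, 8 were under 30%, and all of these lay in its leading part. Only 4 sites lay between 30% and 70%, 1 each at Peg10, Peg3, Plagl1 and Grb10, each with 10 to 12 calls. In these F1 females a C that is T in CBA/Ca would be read as unmethylated in the copies from that strain, which cannot be told apart from missing methylation here.

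The ZFP57 hexamer occurred 61 times on both strands of the 10 ICRs together, with 2 at Zrsr1, 3 each at Peg10 and Kcnq1ot1, 8 at Igf2r and Peg3, 10 at Snrpn and 12 at Mest. Among windows of the same length centred on the 15462 CpG-dense regions of the genome, 66.8% held at least 1 hexamer for the length of Mest and 57.2% for that of Igf2r. As many as at Mest were in 0.0388% of windows, as many as at Snrpn in 0.0582%, as at Igf2r in 0.123% and as at Peg3 in 0.362%, whereas 28.2% held as many as Zrsr1 and 16.2% as many as Peg10. CpGs within the hexamer had 550 methylated of 566 calls (97.2%), beside 8237 of 8853 (93.0%) at the other CpGs of the ICRs. The latter include the low leading part of Peg10, which holds no hexamer, and without it they had 8234 of 8696 (94.7%). At Mest the 2 values were 95.7% and 93.6%, and CpGs in the hexamer had the higher value at 9 of the 10 ICRs, while at Zrsr1 they had 93.3% of 30 calls against 94.9%. Both kinds of CpG often lie on the same reads, and no test was made.

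Gene bodies around the ICRs, with the ICRs themselves taken out, were methylated at different levels. Peg10 (95.6% to 98.5% as group means), Peg3 (94.5% to 97.0%), Kcnq1ot1 (94.2% to 95.4%) and Zrsr1 (94.2% to 98.9%) were close to the level of an ICR. Igf2r (84.7% to 90.9%), Kcnq1 (86.6% to 90.8%), Plagl1 (80.8% to 88.6%), Commd1 (81.6% to 84.9%), Snrpn (80.3% to 84.2%) and Grb10 (77.7% to 79.8%) followed, and Mest (65.2% to 68.6%), Impact (63.4% to 66.0%) and Airn (55.7% to 60.1%) were lowest of these host genes. Sgce (12.2% to 19.1%) and Usp29 (21.4% to 22.3%), which start inside the Peg10 and Peg3 intervals, were lower. Of the 37 imprinted cluster genes, 34 to 36 were informative in a comparison and none was called with 20 points in any of the 6, beside 1.13%, 1.63%, 0.842%, 2.94%, 2.91% and 1.44% of all gene bodies in the order above. By adjusted p alone, 6, 7, 8, 8, 12 and 11 of them were called, beside 17%, 22.6%, 22.5%, 26.6%, 30.1% and 28.1% of all gene bodies.

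Genes that make or keep imprints, 16 in number, were measured over their bodies in the same way, which gives DNA methylation and not expression. They include Dnmt3a and Dnmt3l, which set the mark in oocytes, Zfp57 and Trim28, which keep it in the embryo, and Dppa3, whose protein shields maternal DNA after fertilisation. By adjusted p alone, 6, 3, 6, 5, 8 and 5 of the 16 were called in the 6 comparisons in the order above, beside the same shares of all gene bodies, 17% in IFC against SO and 30.1% in IFC against IV among them. None was called with 20 points in 5 of the comparisons. In IFC against SOA, IFC minus SOA at Dppa3 was -23.6 points, with 32.2% ± 12.3 (SD, n = 4) against 55.7% ± 20.6 (SD, n = 4), where 2.94% of gene bodies were called. That call passed the likelihood-ratio test (Benjamini-Hochberg adjusted p over gene bodies 0.000992) but not the quasi-binomial test or limma, and it was lost without IFC2, without SOA2 and without SOA3. With at least 20 covered positions it could not be tested, since SOA2 had 17. As values chosen after they were seen, Dnmt3a had group means from 70.4% to 74.1%, Dnmt3l from 73.5% to 81.6%, Trim28 from 23.9% to 30.02% and Zfp57 from 45.2% to 58.9%, and none of their differences reached 20 points.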

How the data were processed

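Libraries were made by post-bisulfite adaptor tagging of pooled oocytes. The submitters' processing notes name Trim Galore 0.4.4, cutadapt 1.9.1 and Bismark 0.19.0, with GRCm38 as the build. The deposited files give, per cytosine position, counts of calls in either state, together with the percent methylated as the authors computed it, and 65.5% to 91.5% of positions per library had 1 call. Calls were summed over each ICR, over tiles of 100 CpGs, over gene bodies with the ICRs taken out, and over CpG-dense regions. Regions with fewer than 5 covered positions in a library were not used for that library, and a region was informative when all libraries of both groups passed. The main test was a logistic likelihood-ratio test of pooled calls with Benjamini-Hochberg adjustment over all tiles and ICRs, called below 0.05, and a second limit asked for 20 points of difference. It does not count the spread between pools. A quasi-binomial F test, limma 3.58.1 (R 4.3.3) on pool percentages and 2-sided exact permutation tests over pools do. The exact permutation tests, 1 per ICR and comparison, were not adjusted. Python 3.11.15, numpy 2.4.6, scipy 1.17.1 and pandas 2.3.3 were used. The statistics were tested on simulated tiles with planted drops of 30 points. These drops are larger than any ICR difference between groups found here, so the test does not show whether differences of that smaller size would be found. The rule for named genes took all 10 ICRs, their host genes, and members of both gene lists called with 20 points. Alternatives covered depth, thinning, interval ends, position minimum, the replicate block and leaving out each pool. The ICRs and gene lists were chosen with earlier results of these data known.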

Additional observations from a re-analysis of the deposited data

Results flagged for a closer look

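In 27 groups of 4 or 5 pools tested for a pool that stood apart, 3 were found. Chance alone gives about 1 in 20 for values without ties, a rate that does not apply to the first 2 of them, where the other pools were tied at 100% and any lower value stands apart. At Snrpn, IFC4 had 92.86% of 14 calls, while the other IFC pools were at 100%. At Kcnq1ot1, SOA4 had 96.43% of 112 calls, while the other SOA pools, with fewer calls, were at 100%. At Impact, SO2 had 90.91% of 11 calls, and the other SO pools lay between 95.7% and 97.5%.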

How the results depend on the processing

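No ICR was called with 20 points under 145 of 147 alternatives, and with a limit of 10 points Mest was called in IFC against SOA (1 ICR) and Grb10 in SO against IV (1 ICR). The share of all tiles called at 10 points was not counted. In some alternatives few ICRs could be tested. With at least 20 covered positions asked, only Mest and Peg3 had enough in every library. The paper's methods also set 20 observations as the minimum for imprinted regions. The number of ICRs with an adjusted p under 0.05 moved more often. In IFC against SO it went from 0 to 1, Mest, with intervals shortened by 10% at each end, and ranged from 0 to 1 with 1 pool left out. In SO against SOA it went from 0 to 1, Grb10, when samples with fewer than 5 positions were left out of a region, and from 0 to 1 with 1 pool left out. In SOA against IV it went from 1 to 0 with the quasi-binomial test, limma, thinning, libraries above 10000000 calls only (a single SOA pool, SOA4, so that the fit had 1 sample in that arm), intervals extended by 500 bp, the 3 libraries IV1, SO4 and IFC4 left out, and Peg10 without its leading part together with IV1 left out, and ranged from 0 to 2 with 1 pool left out. In IFC against SOA it went from 1 to 0 with the quasi-binomial test, limma and extended intervals, and was 1 with any pool left out. In IFC against IV it went from 1 to 0 with the quasi-binomial test, limma, thinning, shortened intervals, the 3 libraries left out, and Peg10 without its leading part together with IV1 left out, and ranged from 0 to 2 with 1 pool left out. In SO against IV it went from 1 to 0 with the quasi-binomial test, limma, thinning, libraries above 10000000 calls only and the 3 libraries left out, was 0 with at least 20 positions, where Grb10 could not be tested, went to 2 with shortened intervals, extended intervals and Peg10 without its leading part, and ranged from 0 to 3 with 1 pool left out. The cause was not tested. The alternatives that leave out the leading part of Peg10, samples with few positions or the 3 libraries were chosen after seeing the data.

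Replicate numbers do not pair the pools, which came from different animals, and the deviations of same-numbered pools correlated between -0.0455 and 0.0692. Counting error lowers such correlations, and whether same-numbered libraries shared a batch was not tested. With the replicate block, which drops pools without a partner, 1 ICR was called in IFC against SO (Mest), beside 8014 of 199199 tiles and ICRs. In IFC against IV 2 ICRs were called (Peg10 and Peg3), beside 23571 of 202964, and the other 4 comparisons kept their number. Among these, the block called 18543 of 197363 tiles and ICRs in SO against SOA and 20858 of 197572 in IFC against SOA.

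Among all tiles and ICRs the likelihood-ratio test called 8879 in IFC against SO to 24390 in IFC against IV, the quasi-binomial test 1 to 303 and limma 0 to 2538. The block called 5764 in SOA against IV, where the test without it called 12913, and 12902 in SO against IV, against 23729. Of the genes that make or keep imprints, a limit of 10 points called 1 in IFC against SO, SOA against IV and SO against IV, and 3 in IFC against SOA and IFC against IV, and of the cluster genes 0 in IFC against SO, 3 in IFC against SOA and 2 in each of the other 4 comparisons. The share of all gene bodies called at 10 points was not counted, so whether these counts exceed it is not known. In IFC against SOA the count of the former went from 1 to 0 with the quasi-binomial test and limma, was 0 with at least 20 positions, where Dppa3 could not be tested, and ranged from 0 to 2 with 1 pool left out. It ranged from 0 to 1 in IFC against SO and IFC against IV, as did the cluster genes in IFC against SOA. The difference at single ICRs moved by more than the spread between pools in 17 of 564 values.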
